A study of Rattus norvegicus with 12 samples.

Results

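The response of the Dahl salt-sensitive rat lung to HTV ventilation is described here across genes. It rests on 6 of the 12 arrays in the series, picked by their titles alone: 3 arrays of Dahl salt-sensitive (SS) rats under HTV and 3 of SS controls. The SS rat is an inbred strain known for hypertension on a high-salt diet. HTV is the labels' abbreviation for the ventilation mode and is not spelled out there. The other 6 arrays are control and HTV lungs of the Brown Norway (BN) rat, and they served to estimate the spread between arrays and to test whether the change differed between strains. Per the labels, each array carries whole right lung of an animal of 250 to 350 g, all animals were bled out under anaesthesia, the lung vessels were flushed with buffered saline before freezing, and 6 µg of total RNA was labelled. The description of all 12 arrays, controls included, names room air. How long ventilation lasted, and the animals' sex and age, are not given in these sources. The titles of a group end in different codes, read here as different animals though the titles do not say so. The p-values measure the spread between the arrays of a group. Arrays are numbered within a group only to name them.

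Mechanical ventilation stretches the alveolar wall with every breath. The wall is built of type 1 and type 2 epithelial cells, a dense capillary endothelium and sparse fibroblasts, with resident macrophages and the white cells held in the capillaries. Endothelial cells sense flow and stretch and answer through transcription factors such as Klf2 and Sox18. Stretched cells also switch on early-response genes within a short time, and these encode both transcription factors and the phosphatases, decay factors and inhibitors that end the signal. Whole lung mixes all these cells, so fewer cells of a type and less RNA per cell cannot be told apart.

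Lung markers were bright in both SS groups. The surfactant gene Sftpc had a mean intensity of 3483 in control and 3594 in HTV arrays, the type 1 cell gene Ager 2335 and 2324, and the endothelial receptor Kdr 1948 and 1825. Correlations among the 6 SS arrays ran from 0.914 to 0.980. The array SS control 3 stood apart. It lay at 39.5 on the third principal component, where the other 11 arrays lay between -13.2 and 14.2. Its mean correlation with its own group, 0.949, was the lowest, and its beta-actin 5-prime to 3-prime ratio of -1.40 in log2 was the lowest of the SS arrays. It also went partly against its strain label. At 36 probe sets the other 5 SS arrays all differed from all BN arrays by more than 1.5 in log2, and at 13 of those the value of SS control 3 was nearer to the BN than to the SS average. The same count, taken for each of the other 11 arrays from its own 21 to 25 probe sets, was 0. The array was kept as labelled, and counts are also given without it.

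HTV changed many genes in SS lungs in both directions. Differences are HTV minus control on the log2(intensity + 16) scale, which understates changes of dim genes, and ± gives limma's standard error with n = 3 arrays in each group. Of 18626 probe sets tested, 1501 passed an adjusted p of 0.05 (8.06%), 726 higher and 775 lower, and 4717 had an unadjusted p under 0.05. The rises were the larger: 227 of them reached 2-fold against 71 of the falls, and the median sizes were 0.736 and -0.617. Among 10555 genes, 414 rose (3.92%) and 435 fell (4.12%), and the median difference over all genes was -0.01. The control and HTV arrays did not overlap for 3243 genes (30.7%). Without SS control 3 the test called 999 probe sets, 852 of them among the 1501. The lowest count came without SS HTV 1, with 639, followed by 682 without SS HTV 3 and 905 without SS control 2. Of the 849 called genes, 297 stayed called whichever of the 6 SS arrays was left out, 178 of them higher and 119 lower, and 0 changed direction. In what follows a gene said to rise or fall belongs to those 297 unless the arrays that end its call are named, while the counts of a list are those of the fit to all arrays unless an array is named. A list's counts in that fit stand beside the shares over all genes, 3.92% higher and 4.12% lower.

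The known inflammatory core was as follows. Among immediate-early genes 18 of 26 measured members rose, among NF-kB feedback and adhesion genes 8 of 23, among glucocorticoid targets 11 of 23 and among cytokines and chemokines 7 of 40, with 3 falls in the last list and 0 in the other lists. Without SS control 3 these rises numbered 16, 6, 10 and 6. The fewest NF-kB feedback rises, 4, came without SS HTV 3, and without SS HTV 2 there were 13. The fewest cytokine and chemokine rises, 4, came without SS HTV 1, and the 3 falls became 1 when SS control 1 or 2 or SS HTV 1 or 2 was left out. Of 11 neutrophil genes 7 rose, 4 without SS HTV 1, and the median difference over the 11 was 2.16. Relative to each gene's mean over the 6 arrays, the neutrophil list stood at -1.20, -1.10 and -0.76 in control and 1.42, 0.53 and 1.49 in HTV arrays, and the part of these cells in the results below was not tested. The filter uses the mean over all arrays, so a gene dim in control lungs was kept more readily where HTV raised it. The remaining results concern lists outside that core, but the lists share members. Errfi1, Mt2A, Cdkn1a, Cebpb and Zfp36 are also glucocorticoid targets, and Crem and the Nr4a genes are also immediate-early genes. Pf4 and Tnfsf10 are also in the cytokine list, and Mmp8 and Mmp9 in the neutrophil list. They belong to the core and are counted or named again below, so those counts overlap.

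**Figure D1:**
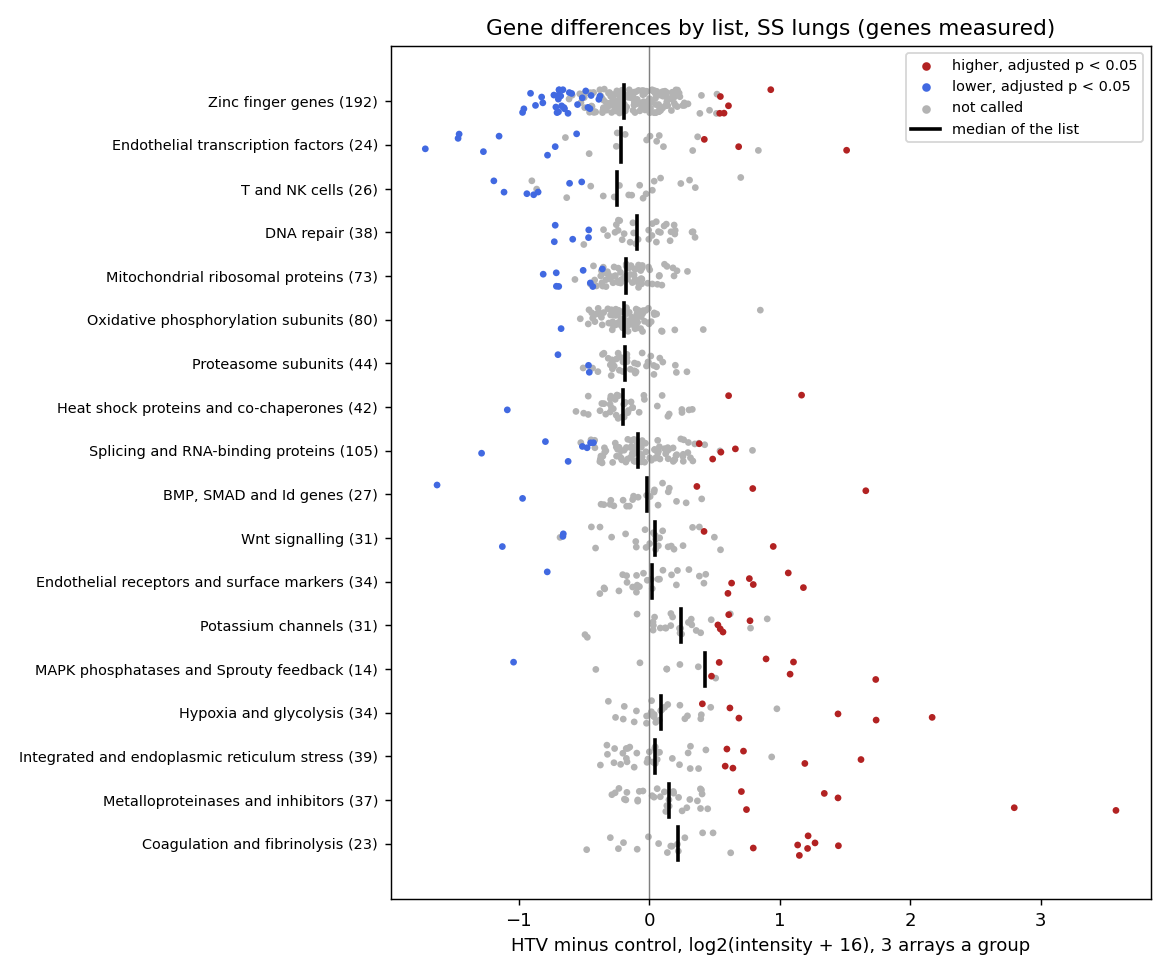
Differences between HTV and control SS lungs for the measured genes of 18 gene lists, in log2, as the change in log2(intensity + 16). Each point is a gene, filled red where it rose and blue where it fell at an adjusted p under 0.05 and grey otherwise, and the black bar marks the list's median. Zinc finger genes and endothelial transcription factors hold most of their coloured points on the left, coagulation and metalloproteinase genes on the right.

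Several transcription factors of the vascular endothelium fell. Of 24 measured endothelial and flow-responsive factors 8 fell and 3 rose, with a median of -0.213, without SS control 3 the counts were 6 and 2, and without SS HTV 1 or SS HTV 3 they were 6 and 1. Sox18, a factor of endothelial and lymphatic differentiation, read 629.9, 702.7 and 436.9 in control arrays and 148.8, 290.7 and 101.7 in HTV arrays, a fall of 1.71 ± 0.29 (limma, adjusted p = 0.00316). Klf2, a factor that blood flow switches on, went from 1429, 1752 and 1254 to 405.8, 832.2 and 417.4. Its difference was -1.46 ± 0.27 (limma, adjusted p = 0.00533), and of its other 3 probe sets those at -1.66 and -0.98 were called and that at -0.33 was not (adjusted p = 0.292). Hhex, a homeobox factor of endothelial and blood progenitors, went from 225.5, 282.1 and 192.6 to 91.4, 71.6 and 98.1. Meox2, a homeobox factor of vascular cells and mesenchyme, went from 380.1, 378.6 and 305.2 to 171.5, 156 and 126.6. Sox18, Klf2, Hhex and Meox2 are among the 30 largest falls, which were taken from genes whose groups do not overlap. Nr2f2, which specifies venous identity, fell by 0.72 (its other probe set had -0.44 and was not called), and Tcf21, a factor of lung mesenchyme, fell by 0.78. Hey1, a Notch target, had a difference of -1.46, but that call was lost when any of 5 of the 6 SS arrays was left out (adjusted p up to 0.103). The rise in the list that held in every fit was that of Heyl, another Notch target found in vascular smooth muscle, which went from 82.7, 100.4 and 48.9 to 178.1, 284.7 and 280.8. The general endothelial markers Pecam1 and Tek had differences of 0.02 and 0.02 and were not called.

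Endothelial surface and receptor genes had more rises than falls. Of 34 measured, 6 rose and 1 fell, and without SS control 3 the counts were 7 and 1. Procr, the endothelial receptor of protein C, went from 159.4, 185.8 and 154.1 to 279.5, 290.5 and 333.1, a rise of 0.80 ± 0.12 (limma, adjusted p = 0.00189). Ramp3, a partner protein of the adrenomedullin receptor, went from 59.6, 62.1 and 68.4 to 128, 150 and 175.3. Its receptor partner Calcrl had the list's negative call, -0.78, which ended without any of 4 arrays (adjusted p up to 0.106). Mcam, an endothelial and pericyte adhesion molecule, went from 1100, 1173 and 969.3 to 1806, 1573 and 1666, and Lyve1, a hyaluronan receptor of lymphatic and some capillary endothelium, from 1487, 1568 and 1489 to 2097, 2660 and 2207. Edn1, the vasoconstrictor endothelin-1, rose by 1.18 ± 0.17 (limma, adjusted p = 0.0014). Ackr1, a chemokine-binding receptor of venules, was outside the lists and was chosen after its values were seen; it went from 83.6, 94.4 and 36.8 to 229.3, 189 and 239.4. Apart from Calcrl, every HTV array lay above every control array in each gene named here. Over all genes the groups did not overlap for 30.7%.

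Genes of the sphingosine 1-phosphate pathway, a regulator of endothelial barrier and lymphocyte exit, were looked up after their values were seen. Sphk1, the kinase that makes the lipid, went from 38.3, 28.2 and 48.7 to 173.1, 132 and 201.7, a rise of 1.76 ± 0.17 (limma, adjusted p = 8.1e-05). The receptor S1pr3 went from 421.4, 525 and 457 to 711.3, 851.9 and 762.2, a rise of 0.71. The receptor S1pr2 went from 299.4, 305.4 and 363.9 to 186.3, 133.4 and 149.9, a fall of 0.98, and its other probe set had -0.60 (adjusted p = 0.0645). S1pr1, the main endothelial receptor, had a difference of 0.39 ± 0.12 and missed the threshold (limma, adjusted p = 0.0591). These genes were picked for their changes and have no list of their own, so they carry no count for the pathway.

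**Figure D2:**
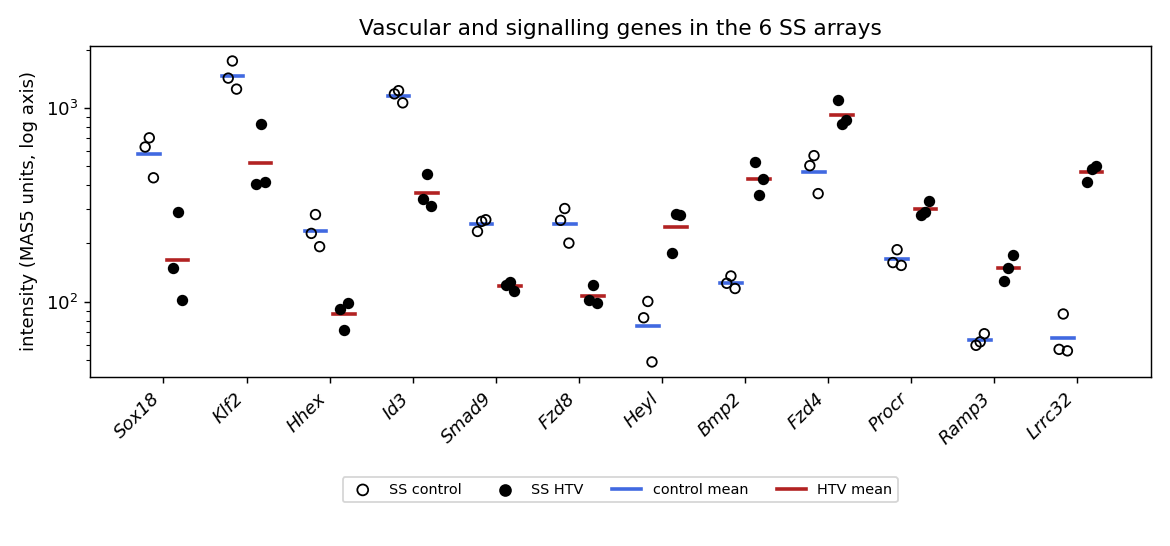
Intensity of 12 vascular and developmental signalling genes in each SS array, on a log axis, with control arrays as open circles and HTV arrays as filled circles and the group means of log2(intensity + 16), turned back to intensity, as bars. The 6 genes on the left have all HTV arrays below all control arrays, and the 6 on the right the reverse. Sox18, Klf2, Hhex, Id3, Fzd8 and Lrrc32 were taken from genes whose groups do not overlap.

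Bone morphogenetic protein (BMP) signalling genes changed in both directions. BMP ligands bind surface receptors that activate SMAD proteins, and Id genes are their direct targets. Of 27 measured genes 3 rose and 2 fell, with a median of -0.019, and without SS control 3 the counts were 2 and 2. The ligand Bmp2 went from 124.6, 135.9 and 117.1 to 526.1, 356.3 and 428.6, a rise of 1.66 ± 0.16 (limma, adjusted p = 6.78e-05). Bmp1, which despite its name is a protease that trims procollagens, went from 483.8, 465.5 and 401.4 to 820.9, 743.5 and 808.3, a rise of 0.79, while its other probe set had 0.33 (adjusted p = 0.458). The signal carrier Smad9 went from 230.8, 260.2 and 265.3 to 122.8, 126.7 and 113.2, a fall of 0.97 ± 0.11 (limma, adjusted p = 0.000229). Its relative Smad1 had a difference of 0.37, a call that ended without any of 4 arrays (adjusted p up to 0.0914), with 0.26 and no call on its other probe set. The target Id3 went from 1185, 1231 and 1065 to 341.5, 457.1 and 310.8. The close relatives Id1 and Id2 had differences of 0.01 and -0.02, and the other probe set of Id2 had 0.33 (limma, adjusted p = 0.277). Id4 differed in the opposite direction to Id3, by 0.40 (limma, adjusted p = 0.0512). So Id3 fell, and Id1, Id2 and Id4 were not called. Lrrc32, the surface anchor of latent TGF-beta, was the one call among 17 TGF-beta genes. It went from 56.8, 86.5 and 55.8 to 417.3, 487.5 and 500.5, a rise of 2.57, the largest in the signalling lists.

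Frizzled receptors of the Wnt pathway changed in both directions. Among 31 Wnt genes 2 rose and 3 fell, and the changes that held in every fit were in the Frizzled receptors. Fzd4, the receptor with a known part in vessel growth, went from 504.6, 568.5 and 361.9 to 1101, 827.9 and 865.2, whereas Fzd8 went from 263.5, 303.1 and 200.9 to 101.7, 122.3 and 98.7 and Fzd2 from 233.4, 222.5 and 169.2 to 127.7, 114.7 and 132.6. Their differences were 0.95, -1.12 and -0.66. Without SS control 3 the list had 2 rises and 4 falls, and without SS control 2 or any one HTV array it had 1 rise. Among 23 Notch genes 3 were called higher and 2 lower. Heyl was the Notch gene called in every fit, while the calls of Notch4 (0.62) and of the ligand Dll1 (0.98) ended without any of 4 and 2 arrays (adjusted p up to 0.121 and 0.0939). No negative call in the Notch list was left when any SS array other than SS HTV 2 was left out, and 1 positive call was left without SS HTV 3. The growth factor list gave 1 call in 16, the epidermal growth factor receptor ligand Areg, which rose by 1.32. In the lung developmental list 1 of 29 was called higher and 3 lower, and Tcf21 was the member called in every fit. Without SS control 3 that list had 0 higher and 5 lower, and the positive call was also lost without any one HTV array. The Hedgehog list of 7 had no call.

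Several feedback inhibitors of growth factor signalling rose, and Spry2 fell. In the list of MAPK phosphatases, Sprouty genes and related inhibitors 6 of 14 rose and 1 fell, with a median of 0.428. The count rested on single arrays: 2 rises were left without SS control 3 or SS HTV 1, and 3 without SS control 2 or SS HTV 3, and the fall stayed in each of these fits. Errfi1, which binds and blocks the epidermal growth factor receptor, went from 483.8, 544.1 and 673.8 to 2111, 1877 and 1756, a rise of 1.74 ± 0.15 (limma, adjusted p = 3.05e-05). Dusp10, a phosphatase of the stress-activated kinases p38 and JNK, went from 55.8, 52.6 and 45.2 to 116, 132.6 and 137.2. Dusp9, a phosphatase of ERK that stands outside the list, is among the 30 largest rises and went from 30.1, 39.6 and 33.9 to 217, 230.8 and 253.2. Spry2, an inhibitor of receptor tyrosine kinase signalling, went from 405.4, 433.9 and 304 to 183.2, 193.1 and 152.3, a fall of 1.04 ± 0.18 (limma, adjusted p = 0.0046).

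Regulators of G-protein and cyclic AMP signalling changed in both directions. Among 14 RGS genes, which switch off G proteins, Rgs1 went from 54.7, 50.8 and 98.2 to 277.7, 173.3 and 282.9 and Rgs16 from 55.8, 48.3 and 81.3 to 174.6, 158 and 218, while Rgs3 went from 510.3, 545.6 and 494.1 to 360.4, 339.8 and 318.4. Rgs3 fell by 0.58, and of its other 2 probe sets that at -1.05 was called and that at -0.22 was not (adjusted p = 0.268). The list held 2 rises and 1 fall whichever SS array was left out. Among 33 phosphodiesterases and cyclic-nucleotide enzymes 3 rose, and 1 without SS control 2, SS HTV 1 or SS HTV 3. Pde4b, which breaks down cyclic AMP, rose by 1.09 ± 0.20 (limma, adjusted p = 0.00599). Crem, a cyclic AMP-responsive transcription factor, rose by 1.58, and Sik1, a kinase gene that cyclic AMP induces, went from 335, 342.7 and 194.7 to 1292, 1342 and 1451. Adora2b, the adenosine receptor that raises cyclic AMP, was named after its values were seen and rose by 0.76.

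Cytoskeletal regulators included some of the larger changes. Cdc42ep2, an effector of the GTPase Cdc42, went from 346.1, 349.7 and 206.3 to 1339, 909.5 and 1093, a rise of 1.85 ± 0.19 (limma, adjusted p = 0.000108). Its relative Cdc42ep3 went from 674.6, 722.3 and 744.7 to 458.4, 415.1 and 439.1, a fall of 0.69. Arhgef15, an exchange factor of vascular endothelium, went from 559.4, 561.7 and 504.9 to 281.4, 238.8 and 236, a fall of 1.06 ± 0.13 (limma, adjusted p = 0.00039). Among 22 integrin genes Itga7, a laminin receptor, went from 33.1, 64.3 and 44.5 to 143.3, 202.9 and 170.9, and it was the list's sole call in every fit, beside 1 further rise and 1 fall. In the actin list of 43 genes 2 were called higher (4.65%) and 1 lower (2.33%), near the 3.92% and 4.12% of all genes. Of these calls 1 higher was left without SS control 3, SS HTV 1 or SS HTV 3. Pdlim1, an actin-binding adaptor, rose by 0.87.

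Few axon guidance ligands and receptors were called. Of 39 measured 3 rose (7.69%) and 1 fell (2.56%), against 3.92% and 4.12% of all genes, and 2 fell without SS control 3. The ligand Efnb1 rose by 0.83 (0.51 and not called on its other probe set) and the semaphorin Sema6b by 1.08, whereas the receptor Ephb3 went from 131.2, 123.9 and 114 to 62.2, 41 and 55.1, a fall of 1.03. Flrt3, an adhesion molecule that binds guidance receptors and stands outside the list, went from 566.2, 573.8 and 469.3 to 234.5, 233.6 and 234.3, so that its HTV arrays were nearly equal. The list of 31 potassium channels had 28 differences above 0, a median of 0.242 and 5 calls. None of those calls held in every fit. Without SS HTV 3 the list had 0 calls, when SS control 2 or 3 or SS HTV 2 was left out it had 1, without SS HTV 1 it had 2 and without SS control 1 it had 3.

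Many zinc finger transcription factors fell. Of 192 measured genes of the Zfp, Znf, Zkscan and Zbtb families 30 fell and 5 rose. That is 15.6% falls against 4.12% of all genes, and 130 of the 192 differences were below 0, with a median of -0.191 against -0.01 for all genes. Most members are DNA-binding proteins of unknown target, many of them repressors. Zbtb18, a repressor, went from 529.8, 505.5 and 554.9 to 245.3, 279.2 and 264.7, a fall of 0.97 ± 0.10 (limma, adjusted p = 0.000108). Zfp715 went from 286.5, 319.3 and 460.4 to 170.9, 184.6 and 159.6, Zbtb11 from 269.2, 291 and 392.4 to 189.4, 192.5 and 188.4, and Zfp207, a spindle assembly factor, from 411.3, 410.7 and 511.2 to 279.8, 275.9 and 273.6. Znf846 was dim and went from 60.5, 55.8 and 67.4 to 18.1, 35.6 and 23.4. None of these groups overlapped, which held for 30.7% of all genes. Zfp207 and Zbtb21 were chosen after their values were seen. The rises that held in every fit were Znf750, a factor of epidermal differentiation (0.93), Zbtb21 (0.61) and Zfp619 (0.55). The list's level in SS control 3, 0.088 above its mean over the 6 arrays, was like that of the other control arrays, 0.085 and 0.077. Without that array 20 members fell and 3 rose with a median of -0.187, and the fewest falls, 12, came without SS HTV 1; leaving out SS HTV 3 gave 14. For Zbtb18 and Zfp207, other probe sets of the gene did not show the fall (differences of -0.03 and 0.05).

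RNA processing genes moved in a smaller number. Of 105 splicing factors and nuclear RNA-binding proteins 7 fell (6.67%) and 4 rose (3.81%), with a median of -0.084. Over all genes 4.12% fell and 3.92% rose. Clk1, the kinase that phosphorylates splicing factors, went from 904.1, 1077 and 1270 to 648.8, 519.7 and 680.2. Luc7l3, a component of the U1 splicing particle, fell by 0.62, Tra2a, a splicing activator, by 0.51, and Rbm12b, an RNA-binding protein, by 1.28 ± 0.15 (limma, adjusted p = 0.00024). Srsf5, a splicing factor of the SR family, went from 1064, 1018 and 1057 to 1851, 1531 and 1285, a rise of 0.55. Falls numbered 4 when SS control 2 or 3 or SS HTV 3 was left out. Rises numbered 1 without SS HTV 1 and 2 without SS control 2 or SS HTV 3. Among 31 messenger decay and stability factors 3 were called higher and 1 lower, and the call that held in every fit was that of Zfp36, which marks inflammatory messengers for decay and rose by 1.39. Mex3b, an RNA-binding ubiquitin ligase outside that list and among the 30 largest falls, went from 198.8, 179.8 and 144.4 to 80.5, 52 and 59.2. Arid5a, which shields some inflammatory messengers from decay, is in the list of 103 chromatin regulators, where 2 were called higher and 3 lower and only its own call held in every fit. It went from 78.6, 78.9 and 71.2 to 261.3, 164.5 and 294.5.

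Housekeeping lists of the mitochondrion and proteasome had medians slightly below 0, and SS control 3 was the array with the highest level of each. Of 73 mitochondrial ribosomal proteins, which build the ribosome that makes respiratory chain subunits, 8 were called lower and 0 higher, with 61 differences below 0 and a median of -0.175. Without SS control 3 there were 2 calls and a median of -0.12, without SS HTV 1 there were 0 calls, without SS control 2 or SS HTV 3 there were 3 and without SS HTV 2 there were 4. Mrpl55 went from 313.8, 333.5 and 355.3 to 165, 189.8 and 246.1, and its call ended without SS HTV 1 (adjusted p = 0.0592). Mrps33 went from 275.8, 323.8 and 467.8 to 182.9, 220.7 and 216.7, with the highest value in SS control 3, and its call also ended without SS HTV 1 (adjusted p = 0.0775). Of 80 oxidative phosphorylation subunits 70 lay below 0, with a median of -0.189 and 1 call. That call was lost without SS control 3, SS HTV 1 or SS HTV 3, there were 3 without SS HTV 2, and the median without SS control 3 was -0.098. The median level of these subunits, relative to each gene's mean over the 6 arrays, was 0.288 in SS control 3, against -0.04 and 0.053 in the other control arrays and -0.121 to -0.035 in the HTV arrays. For 42 cytosolic ribosomal proteins the median turned from -0.138 to 0.026 without that array, and no member was called in either fit. Of 44 proteasome subunits 3 fell, with a median of -0.185 (-0.125 and 2 falls without SS control 3, and 1 fall without SS control 2, SS HTV 1 or SS HTV 3). Psmd5, an assembly chaperone of the proteasome, was the member that fell in every fit, from 361.2, 433.7 and 406.4 to 211.7, 285.1 and 229.

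**Figure D3:**
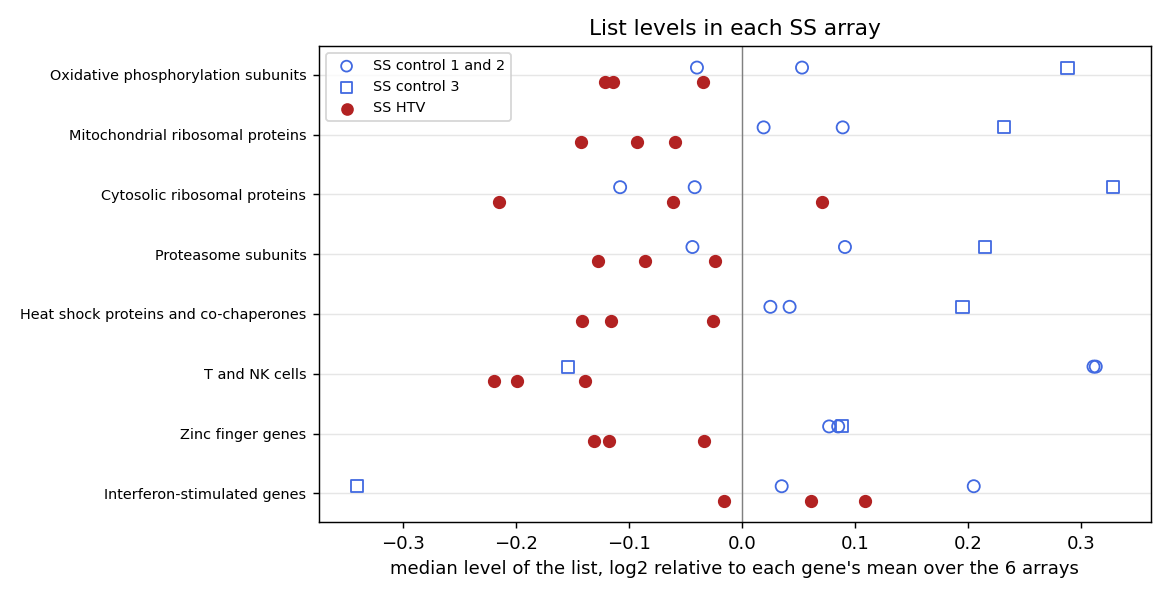
Median level of 8 gene lists in each SS array, in log2 relative to each gene's mean over the 6 arrays. Open circles are control and filled circles HTV arrays, with SS control 3 drawn as an open square. The square is the highest point for the oxidative phosphorylation, ribosomal, proteasome and chaperone lists and the lowest for interferon-stimulated genes, lies among the HTV arrays for T and NK cells, and lies with the other control arrays for the zinc finger genes.

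DNA repair and nuclear transport genes gave falls that depended on single arrays. Of 38 DNA repair genes 5 were called lower and 0 higher. Msh6, a mismatch recognition factor, went from 138.9, 161.1 and 162.5 to 96.6, 94.1 and 101, and its call ended without SS control 2 or SS HTV 1 (adjusted p up to 0.0521). The list had 2 falls without SS control 3 or SS HTV 2, and 1 without SS control 2, SS HTV 1 or SS HTV 3. Of 52 nuclear transport genes 3 were called lower and 1 higher, and no negative call was left without SS control 3, SS HTV 1 or SS HTV 3 and 1 without SS control 2. The nuclear pore gene Nup107, among the 30 largest falls at -1.18, lost its call without any of 4 arrays (adjusted p up to 0.102). Cell cycle and DNA replication genes, 38 measured, had 0 calls.

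Some glucose handling genes rose. Of 34 hypoxia and glycolysis genes 6 rose and 0 fell, with a median of 0.094, and 4 rises were left without SS control 3. Slc2a3, a high-affinity glucose transporter, went from 48.2, 50 and 34.3 to 307.8, 165.7 and 312.9, a rise of 2.17 ± 0.38 (limma, adjusted p = 0.00448). Its other probe set differed by 0.70 and was not called (adjusted p = 0.0982). Pfkfb3, the enzyme that makes the activator of phosphofructokinase, went from 256, 325.6 and 421.1 to 836.8, 886.1 and 1054. Slc16a3, which exports lactate, went from 120.9, 117.7 and 95.4 to 470.3, 340.6 and 421, a rise of 1.74 ± 0.23 (limma, adjusted p = 0.000613). Ndrg1, a hypoxia- and stress-responsive gene, rose by 0.62, with 0.32 and no call on its other probe set. Pck1, the first enzyme of glucose synthesis from oxaloacetate, is among the 30 largest rises and went from 43.4, 40.5 and 55.8 to 370, 267.2 and 275.4; its difference was 2.35 in SS and 0.39 in BN lungs, and these did not differ past the threshold (limma interaction contrast, adjusted p = 0.53). Of the 34 genes in the list 28 were not called.

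Mitochondrial carriers and peroxisomal genes added further metabolic changes. Of 31 carriers of the Slc25 family 4 rose and 0 fell. Slc25a25, the calcium-sensitive carrier of ATP-Mg and phosphate, went from 103.6, 119.3 and 115.3 to 294.9, 233.9 and 360.9, a rise of 1.26 ± 0.15 (limma, adjusted p = 0.000255). Slc25a15, the ornithine carrier, went from 147.1, 146.8 and 156.7 to 258.2, 469.3 and 348.7, a rise of 1.14, and its other 4 probe sets had 0.73 to 1.05, with that at 1.05 not called (adjusted p = 0.0531). The fewest rises, 2, came without SS HTV 3. In the list of 33 fatty acid oxidation and peroxisome genes 1 rose and 1 fell, and Pex11a, which drives peroxisome division, went from 111.8, 112.8 and 115.4 to 243.6, 293.6 and 223.9. It rose by 1.05, with 0.64 on its other probe set (adjusted p = 0.0969). Ppard, a fatty acid-sensing nuclear receptor, rose by 0.71. Of 35 nuclear receptors and coactivators 6 rose and 1, Nr2f2, fell. The 6 include the immediate-early genes Nr4a1, Nr4a2 and Nr4a3, and 4 rises were left without SS HTV 3. Noct, a clock-regulated phosphatase of NADPH, went from 81.6, 86.5 and 86.8 to 555.2, 224.3 and 626.5, with SS HTV 2 well under the other HTV arrays. Alas1, the first enzyme of haem synthesis, went from 324.8, 352 and 413.5 to 975.8, 966.6 and 1136 and was named after its values were seen. Depp1, which FoxO factors induce, went from 381.2, 359.6 and 305.9 to 3324, 1540 and 2641.

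Stress response genes rose selectively. Of 39 genes of the integrated and endoplasmic reticulum stress responses 6 rose and 0 fell, and the same counts held without SS control 3. Leaving out SS HTV 1 gave 4 rises, and leaving out SS control 2 or SS HTV 2 gave 5. Ppp1r15a, which restarts translation by dephosphorylating eIF2alpha, went from 239.9, 220.8 and 214.9 to 908.6, 477.3 and 880.1, a rise of 1.62 ± 0.22 (limma, adjusted p = 0.000647). Chac1, a glutathione-degrading target of ATF4, went from 76.1, 79.2 and 83.3 to 123, 117.9 and 145.4, and Edem1, which sends misfolded proteins to degradation, rose by 0.64. The other 2 probe sets of Edem1 had 0.29 and 0.22 and were not called (adjusted p = 0.329 and 0.401). Cebpb, a transcription factor of several stress and acute-phase programmes, rose by 1.19. Among 24 amino acid transporters 1 was called higher and among 58 translation factors 1, and both counts were 0 without SS control 2 or SS HTV 3, while 30 aminoacyl-tRNA synthetases gave no call.

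Chaperones mostly stayed below the threshold. Of 42 heat shock proteins and co-chaperones 2 rose and 1 fell, with 32 differences below 0 and a median of -0.199 (-0.11 without SS control 3). Dnajb5 went from 35.4, 40.4 and 31.7 to 89.4, 87.8 and 127.4 and Bag3, a co-chaperone of stretched and loaded cells, from 478.1, 427.1 and 322.8 to 600.9, 661.3 and 613.5, whereas Chordc1, an Hsp90 partner, went from 376.3, 418.4 and 592.8 to 218.1, 215.7 and 184. Among 30 Nrf2 targets and metallothioneins 4 rose. The count was 2 without SS control 2, SS HTV 1 or SS HTV 3. Srxn1, which repairs oxidised peroxiredoxins, went from 54.1, 50.5 and 48.4 to 146.9, 153.8 and 135.8, a rise of 1.27 ± 0.13 (limma, adjusted p = 0.000108), and the metal-binding Mt2A went from 289.1, 275 and 329.4 to 2160, 1558 and 2101.

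Growth arrest, apoptosis and clock genes moved both ways. Of 24 p53 targets and growth arrest genes 4 rose and 2 fell, no fall was left when SS control 2 or 3 or SS HTV 1 or 3 was left out, and 2 rises were left without SS HTV 3. Cdkn1a, the cell cycle inhibitor p21, went from 348, 262 and 206.8 to 1440, 1394 and 999.4, and Gadd45g, a stress-induced growth arrest gene, went from 173.7, 209.9 and 143.9 to 356.9, 392.6 and 361.1. Of 29 Bcl2 family and apoptosis genes 4 rose and 4 fell. Bcl2l11, which encodes the death-promoting protein Bim, went from 240.3, 299.6 and 345.3 to 553, 601.4 and 525, while the caspase genes Casp1 and Casp2 fell by 0.56 and 0.59. Cflar and Bcl2l1 had larger differences than the 0.90 of Bcl2l11, at 1.96 and 1.15. The call of Cflar ended without SS HTV 1 or SS HTV 3 (limma, adjusted p up to 0.0721). That of Bcl2l1 ended without SS HTV 3 (limma, adjusted p = 0.0534). Another probe set of Bcl2l11 had 0.52 and of Casp2 -0.35, and neither was called (adjusted p = 0.106 and 0.167). Leaving out SS HTV 3 left 1 apoptosis gene rise and leaving out SS HTV 1 left 2, and the falls numbered 2 when SS control 2 or 3 or SS HTV 1 or 3 was left out. Of 19 clock genes 3 rose and 1 fell. Nfil3 and Bhlhe40, repressors within the clock, went from 87, 88.1 and 41.2 to 372.8, 306.2 and 213.8 and from 77.7, 88.8 and 73.1 to 221.6, 164.4 and 337.7. The Clock gene itself had a difference of -0.53, a call that ended without any of 3 arrays (adjusted p up to 0.0698), and its other 2 probe sets had -0.13 and -1.40 and were not called.

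**Figure D4:**
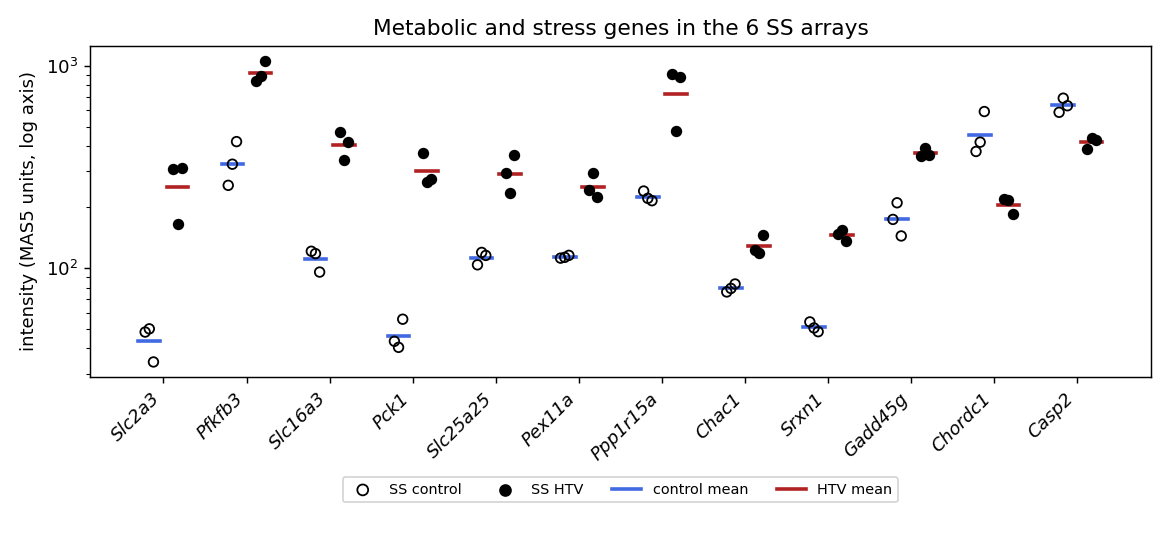
Intensity of 12 metabolic and stress genes in each SS array, on a log axis, with control arrays as open circles and HTV arrays as filled circles and the group means of log2(intensity + 16), turned back to intensity, as bars. The 10 genes from Slc2a3 to Gadd45g have all HTV arrays above all control arrays, and Chordc1 and Casp2 the reverse. Slc2a3, Pck1 and Chordc1 were taken from genes whose groups do not overlap.

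Promoter windows of genes that rose were searched for short motifs, as a description. Windows run from 250 bases before to 50 after the RefSeq start on the rat assembly GRCr8, and 8754 of the 10555 tested genes had one, 334 of those that rose and 357 of those that fell. The AP-1 site, read as TGACTCA or TGAGTCA on either strand, was in 22 windows of genes that rose (6.59%), 4 of genes that fell (1.12%) and 3.5% of all windows. The cyclic AMP response element TGACGTCA, which does not overlap the AP-1 letters, was in 4.79%, 1.96% and 3.11%. The NF-kB site was in 8.38%, 4.2% and 5%, and the Interferon-stimulated response element in 1.5%, 3.92% and 3.03%. The TCF site ATCAAAG was in 1.2%, 3.64% and 2.18%. A match is a run of letters and not a bound site. The windows below were picked from those that hold a match, so they do not stand for the genes that rose. They belong to genes outside the inflammatory core that rose in every fit, whereas the shares above include the core. They are printed 5′ to 3′ on the gene's strand with every match to the cyclic AMP response element or the AP-1 site in capitals. The motifs quoted are 5 of 14 searched, chosen after their shares were seen. The window of Slc25a25 holds the cyclic AMP response element, that of Ppp1r15a holds 1 match to each motif, and the others hold AP-1 sites, with 2 in Srxn1.
Slc25a25, chr3:36116532-36116831, minus strand: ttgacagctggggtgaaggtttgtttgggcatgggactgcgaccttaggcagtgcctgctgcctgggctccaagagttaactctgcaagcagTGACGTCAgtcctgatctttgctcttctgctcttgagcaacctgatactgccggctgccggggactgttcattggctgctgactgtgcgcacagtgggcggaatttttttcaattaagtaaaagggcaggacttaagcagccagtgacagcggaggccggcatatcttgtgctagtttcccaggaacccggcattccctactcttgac
Ppp1r15a, chr1:105139547-105139846, minus strand: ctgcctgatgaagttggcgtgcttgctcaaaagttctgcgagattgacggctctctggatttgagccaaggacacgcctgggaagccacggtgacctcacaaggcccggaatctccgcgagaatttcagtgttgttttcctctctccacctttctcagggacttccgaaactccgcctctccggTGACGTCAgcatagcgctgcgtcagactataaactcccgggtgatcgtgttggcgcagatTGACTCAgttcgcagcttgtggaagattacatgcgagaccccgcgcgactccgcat
Bag3, chr1:192533210-192533509, plus strand: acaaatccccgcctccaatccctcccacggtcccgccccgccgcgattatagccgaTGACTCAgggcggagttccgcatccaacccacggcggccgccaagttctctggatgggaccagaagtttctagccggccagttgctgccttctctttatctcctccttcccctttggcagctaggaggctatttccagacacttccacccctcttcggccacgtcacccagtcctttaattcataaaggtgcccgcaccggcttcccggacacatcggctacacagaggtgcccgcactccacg
Procr, chr3:164714477-164714776, plus strand: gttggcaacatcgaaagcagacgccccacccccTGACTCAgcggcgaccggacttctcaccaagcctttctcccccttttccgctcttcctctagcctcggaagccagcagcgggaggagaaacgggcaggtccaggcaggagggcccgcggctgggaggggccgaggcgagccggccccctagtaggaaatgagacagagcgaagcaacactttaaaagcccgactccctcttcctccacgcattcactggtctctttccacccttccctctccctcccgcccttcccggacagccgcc
Slc16a3, chr10:106712078-106712377, plus strand: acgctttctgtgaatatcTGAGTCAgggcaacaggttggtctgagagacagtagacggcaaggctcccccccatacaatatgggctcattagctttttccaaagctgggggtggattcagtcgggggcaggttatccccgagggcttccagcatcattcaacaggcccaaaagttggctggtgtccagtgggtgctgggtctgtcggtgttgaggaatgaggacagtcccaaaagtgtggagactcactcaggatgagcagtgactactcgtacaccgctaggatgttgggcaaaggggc
Srxn1, chr3:161064562-161064861, plus strand: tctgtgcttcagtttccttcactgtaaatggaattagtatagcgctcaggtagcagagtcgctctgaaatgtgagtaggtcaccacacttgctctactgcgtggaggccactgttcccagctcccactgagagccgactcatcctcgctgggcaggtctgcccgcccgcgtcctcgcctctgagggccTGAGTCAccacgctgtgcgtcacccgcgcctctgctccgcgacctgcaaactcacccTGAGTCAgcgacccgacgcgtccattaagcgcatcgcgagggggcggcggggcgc

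Matrix-cutting and matrix genes rose where they were called. Of 37 metalloproteinases and inhibitors 6 rose and 0 fell, and the same 6 and 0 were counted without SS control 3. Without SS HTV 1 there were 5 rises. The 6 include Mmp8 and Mmp9, which are also in the neutrophil list of the core. Adamts1 and Adamts9, which cleave proteoglycans, rose by 1.34 and 0.71. Adamts1 went from 281.8, 354.2 and 408.4 to 823.1, 955.6 and 918.7. Adamtsl2, a fibrillin-binding relative without protease activity, went from 131.7, 118.3 and 120.5 to 315.7, 409.7 and 372.9, and Adam8, a white cell sheddase, rose by 0.75. The neutrophil collagenase Mmp8 rose by 2.80; the larger difference of Mmp9, 3.58, lost its call without SS HTV 1 (adjusted p = 0.0589), and its other probe set differed by 2.18. Of 49 collagens and matrix genes 3 were called higher, the basement membrane genes Col4a2 (0.60), Hspg2 (0.52) and Lama5 (0.58), and the calls of Hspg2 and Lama5 ended without SS control 3. None of the 3 calls was left without any one HTV array. Cemip2, a surface hyaluronidase, went from 108.8, 125.5 and 22.4 to 319.1, 353.2 and 395.6, with SS control 3 far below the other controls; without that array its rise was 1.48 (adjusted p = 0.000467).

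Several coagulation and fibrinolysis genes rose. Of 23 measured 7 rose and 0 fell, 6 and 0 without SS control 3. F3, tissue factor, which starts clotting, went from 551.9, 640.2 and 302.4 to 1478, 1344 and 1175, a rise of 1.45 ± 0.21 (limma, adjusted p = 0.00141). F5, the cofactor of thrombin formation, went from 83.8, 68.9 and 84.1 to 272.6, 155.2 and 200. On the side that limits clots, Serpind1, an inhibitor of thrombin, went from 36.9, 38.2 and 35.3 to 90.8, 120.2 and 91.8, Plat, tissue plasminogen activator, from 537.2, 654.8 and 520.9 to 1279, 1088 and 1509, and Plaur, the receptor of urokinase, from 60.6, 73.1 and 35.2 to 158, 158.8 and 145.6. Platelet genes were also higher: of 13 red cell and platelet genes 4 rose. Tubb1, the platelet tubulin, went from 72.3, 59.2 and 42 to 300.4, 128.3 and 170.4. Pf4, platelet factor 4, had a difference of 1.25, a call that ended without SS HTV 1 (adjusted p = 0.0589). Without SS HTV 1 that list had 1 rise, and without any one control array 2. The part of retained blood in these results was not tested.

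Immune receptors changed in both directions. Of 49 interleukin, toll-like and related receptors 10 rose and 3 fell, against 7 and 3 without SS control 3. Il4r, the interleukin 4 receptor, went from 172.5, 224.2 and 214.7 to 628.8, 550.7 and 628.8 (limma, adjusted p = 1.91e-05), and Il6r from 349.7, 398.9 and 394.9 to 573.4, 677.1 and 636.9. Irak2, a kinase of toll-like receptor signalling, went from 160.3, 149.8 and 173.3 to 479.7, 326 and 450.3. Cd14, the co-receptor of bacterial endotoxin, went from 215, 229.4 and 191.4 to 542.6, 396.4 and 531.4, whereas Tlr4, its signalling receptor, went from 193.5, 216.6 and 212.8 to 82.9, 87.8 and 85.7, a fall of 1.14 ± 0.11 (limma, adjusted p = 8.1e-05). The chemokine receptor Cxcr4 went from 836.7, 781.1 and 656.8 to 372.3, 420.8 and 254.1. Of 42 interferon-stimulated genes 5 rose and 2 fell. Ifit3 and Oasl went from 212.4, 306.7 and 123.2 to 529, 503.4 and 678.1 and from 150.3, 154.4 and 88.7 to 366.8, 261.7 and 338.6, and in both SS control 3 was the lowest array. Ifit2 rose by 0.92. Without SS control 3 the list had 3 rises and 2 falls and its median turned from 0.112 to -0.086. Without SS HTV 1 or SS HTV 3 it had 3 rises and 0 falls. Tnfsf10, the death ligand TRAIL, stands outside the list and fell by 0.71.

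Some lymphocyte genes fell. Of 26 T and NK cell genes 7 fell and 0 rose, with a median of -0.247. SS control 3 had a list level of -0.154, among the HTV arrays (-0.22, -0.199 and -0.139) and below the other control arrays (0.313 and 0.311). Without it 12 genes fell and the median was -0.475, whereas 3 fell when SS control 1 or 2 or SS HTV 1 or 3 was left out, and 4 without SS HTV 2. Gzma, a granzyme of cytotoxic cells, went from 303.5, 349.9 and 260.8 to 124.1, 141.6 and 107.7, Klrb1a, an NK cell receptor, from 206.7, 227 and 123 to 92.6, 79.4 and 87.7, and Ptprcap, a lymphocyte membrane protein, from 175.8, 177.9 and 188.6 to 78, 67.7 and 80. The T cell receptor genes Cd3e and Cd3d had differences of 0.04 and 0.03 and were not called. Both were dim, with control means of 71.2 and 64.1. The brighter markers Prf1 and Nkg7 had differences of -0.86 and -0.63 and were not called either (limma, adjusted p = 0.0721 and 0.086). Of 16 B and plasma cell genes 3 fell and 0 rose, but 7 differences lay above 0 and 9 below. The median of that list was -0.034, and 0.067 without SS HTV 3, so the list as a whole did not fall. Cd79b, a chain of the B cell receptor complex, went from 74.9, 77.8 and 78.2 to 15.3, 10.1 and 5.3, the largest fall of the 10555 genes, and Ighvl1, an immunoglobulin heavy chain gene, from 308.2, 261.8 and 359.7 to 129.8, 76.4 and 96.2. The lymphocyte GTPase Gimap7 went from 230.9, 205.6 and 167 to 76.7, 84.1 and 77.4, and its relative Gimap4, chosen after its values were seen, from 439.1, 445.9 and 517.3 to 224.2, 258.7 and 227.6.

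Epithelial programmes gave few calls. Of 23 type 2 cell genes 1 was called lower, of 16 type 1 cell genes 0, of 33 cilium genes 0, of 40 junction genes 1 higher, of 29 ion and water transport genes 1 lower, and of 19 secretory airway genes 1 higher. The ion and water transport call was lost whichever array was left out, and 2 rises appeared without SS control 3. The junction list had 0 calls when SS control 1 or 2 or SS HTV 1 was left out, and 2 without SS control 3. The type 2 cell call was Etv5 (-0.59), and it ended without any of 4 arrays (adjusted p up to 0.0755), while another probe set of the gene differed by 0.35. The secretory airway call was Cyp1b1, an enzyme of xenobiotic metabolism, which went from 147.9, 130.9 and 134.4 to 258.9, 319.2 and 243. Among 19 macrophage genes there were 0 calls. Cardiac muscle genes, 25 measured, had a median of 0.431 and no call. They varied from array to array: Myl7 read 143.6, 3.4 and 39.6 in control and 371, 175.9 and 5.6 in HTV arrays, so the groups overlapped, and the part of heart tissue in other results was not tested.

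Other large falls belonged to genes of varied or poorly known function. Btbd3, a BTB-domain protein, went from 684.2, 653.4 and 918.4 to 263.7, 283.7 and 227.4, S100pbp, a binding partner of S100P, from 236.5, 271.1 and 332 to 79.5, 119.4 and 107.5, and Eva1b, a membrane protein, from 565.7, 798.6 and 846.2 to 332.4, 250.8 and 306.7. Trim59, a membrane-bound ubiquitin ligase, went from 65.4, 82.8 and 90 to 17.7, 25 and 31.3. In the list of 229 ubiquitin ligases and deubiquitinases 9 fell (3.93%) and 7 rose (3.06%), near the 4.12% and 3.92% of all genes. Without SS HTV 1 that list had 5 falls and 3 rises, and 11 rose without SS control 1. Pik3c2b, a lipid kinase, went from 187.1, 169.6 and 139.4 to 59.3, 67.5 and 74.4, Lpar6, a lysophosphatidic acid receptor, from 237.6, 256 and 226.1 to 114.9, 90.7 and 95.2, Pdia5, a disulphide isomerase of the endoplasmic reticulum, from 138.1, 117.7 and 256.4 to 66.4, 66.2 and 59.7, and Aasdh, named for an aminoadipate semialdehyde dehydrogenase, from 80.2, 82.8 and 104.3 to 37.9, 26.4 and 35.4. Those among the 30 largest falls were taken from genes whose groups do not overlap. S100pbp fell by 1.33, and by 0.75 on its other probe set. Among bright genes Amotl2, a junction protein of endothelium that binds YAP, went from 1443, 1388 and 1307 to 858.9, 985.7 and 860.7, and Trib2, a pseudokinase, from 995.4, 993.6 and 1083 to 605.8, 714.8 and 526.5.

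The SS change was set against the BN change by a test of their difference. Of 18626 probe sets 0 differed at an adjusted p of 0.05 (limma interaction contrast, smallest adjusted p = 0.53), and 1547 had an unadjusted p under 0.05. Of the 414 genes that rose in SS lungs 202 also passed in BN lungs, which is 48.8% of the SS and 63.9% of the 316 BN rises. Of the 435 falls 130 did, 29.9% of the SS and 45.8% of the 284 BN falls. Over all 10555 genes the BN test called 316 rises and 284 falls. The sign was the same in 385 of the 414 and 413 of the 435, and the share of all genes with the same sign was not computed. Among the 10 smallest unadjusted interaction p-values were several genes described above. Gzma differed by -1.19 in SS and -0.18 in BN lungs, Flrt3 by -1.14 and -0.29, Bmp1 by 0.79 and -0.00, and Gadd45g by 1.02 and 0.02. None of these differences between strains passed the adjustment, so no change above is shown to be particular to the SS rat.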

How the data were processed

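Total RNA of 12 rat lungs was measured on Affymetrix arrays, and the deposited values are linear MAS5 intensities, made by the authors per the submitters' processing notes; each array's trimmed mean was 150, so the arrays were scaled before deposit. Probe sets with a mean intensity over all 12 arrays at or above the 40th percentile (43.64) were kept and turned to log2(intensity + 16). limma 3.58.1 in R 4.3.3 fitted 4 group means over the 12 arrays with eBayes trended on intensity, which leaves 8 residual degrees of freedom. The Benjamini-Hochberg adjustment ran across the 18626 probe sets kept, and the script was tested on simulated data. A gene is its brightest kept probe set with 1 gene name, and 399 called probe sets had none. The members and the 74 gene lists were chosen with earlier results of these data known. Genes named were the 30 largest rises and falls with arrays that do not overlap, up to 8 members of a list by p, the 15 brightest calls in each direction, markers, and the 10 smallest interaction p-values; others are marked, except Id1 and Id2, given beside Id3. Leave-one-out fits and the other alternatives are in the closing section.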

Additional observations from a re-analysis of the deposited data

How the results depend on the processing

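Probe sets called numbered 816 (444 higher, 372 lower) with the 6 SS arrays alone and 569 (317 and 252) with SS control 3 and SS HTV 3 both left out, where each group keeps 2 arrays. These replicate 3 arrays were set apart because the codes in their titles, A81 and A82, lie away from the others, A69 to A73. The labels do not say that the codes mark a batch, and the title-number block separates the same arrays. Leaving out 1 SS array gave 639 to 1357 (354 to 697 higher, 285 to 660 lower), lowest without SS HTV 1. The strain difference gave 0 to 1 calls when 1 array was left out, with the 1 without SS control 2. Other pseudocounts, filters, normalizations, eBayes without a trend, array weights and the title-number block gave 1162 to 2114 calls, each within 1.5 times of 1501. Among 146 named genes that were called, none reversed in any alternative, but some lost their call. Of these 109 stayed called with SS control 3 and SS HTV 3 both left out. With the 6 SS arrays alone 134 stayed called, and without SS HTV 1 131 did. No paired analysis was possible because each title ends in its own code and no code is shared across groups. With 3 arrays a group, small changes of dim genes are the least certain.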
